A study of Mus musculus with 4 samples.

Results

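The genes described here are 8 transcription factors that mark newborn neurons of the embryonic cortical hem and its surroundings: Ebf1, Ebf2 and Ebf3, Lhx1 and Lhx5, Nhlh1 and Nhlh2, and Uncx. They were taken by name, and all 8 were found among the 21937 genes detected in at least 1 of 4 single-cell libraries. Each library was made from pooled male mouse embryos, from telencephalic midline tissue dissected around the cortical hem, which takes in Cajal-Retzius cells and part of the primordium of the hippocampus. The E14.5 gof library held 3 embryos of the genotype Lmx1aCre::Ai9::b-cat gof and the E14.5 control library 3 embryos of Lmx1aCre::Ai9, while the E11.5 gof and E11.5 control libraries held 5 embryos each of those genotypes (sample titles give E11 and E14). All 4 libraries therefore carry the Lmx1a-driven Cre and the Ai9 reporter, which makes tdTomato in cells in which Cre has acted and in their progeny, and the gof libraries carry in addition the allele named b-cat gof, which concerns beta-catenin, the effector of canonical Wnt signalling. With 1 library per group and pooled embryos there is no replicate of any group, so no test between groups exists and no p-value is given.

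EBF proteins are helix-loop-helix factors with a zinc-containing DNA-binding domain that act as neurons leave the cycle, migrate and differentiate; Ebf1 is also known from B lymphocytes, fat precursors and mesenchyme. Lhx1 and Lhx5 are LIM homeodomain factors that work in complexes with the LIM domain-binding protein Ldb1, and Lhx5 is known for its part in forming the hem and Cajal-Retzius cells. Nhlh1 and Nhlh2 are basic helix-loop-helix factors switched on in neurons shortly after they are born, and Uncx is a paired-type homeodomain factor. Cajal-Retzius cells are early-born, reelin-secreting neurons, many of which come from the hem and carry Trp73.

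After filtering, the E14.5 gof, E14.5 control, E11.5 gof and E11.5 control libraries kept 5258, 6577, 6991 and 6503 cells, with a median of 14013, 12850, 5643 and 8172 UMIs (unique molecular identifiers, counts of captured RNA molecules) per cell. No library pair shared more than 18 cell barcodes. Levels are UMIs of a gene per 1000000 UMIs of a group of cells (CPM), with an exact 95% Poisson interval that covers counting error only. A gene is called higher or lower where its 2 levels differ by at least 1.5-fold at a pseudocount of 1 CPM, the intervals are separate, and at least 1 of the levels reaches 10 CPM. The share of all genes called by that rule is given beside each count, and ratios are log2 of (CPM + 1). The tdTomato-positive cells, with 2 or more tdTomato UMIs, numbered 1027 in E14.5 gof, 1104 in E14.5 control, 293 in E11.5 gof and 554 in E11.5 control. Notum, a Wnt target, stood at 194 CPM in E14.5 gof and 0.61 CPM in E14.5 control tdTomato-positive cells, and at 72.5 CPM in E11.5 gof and 0.97 CPM in E11.5 control ones, in the direction of the genotype labels.

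Across all kept cells, the members that passed the call limit were lower in gof at E14.5 and higher in gof at E11.5. At E14.5, Lhx1 stood at 5.15 CPM in gof (95% interval 4.67 to 5.67) and 19.3 CPM in control (18.5 to 20.2), a log2 ratio of -1.73. Nhlh2 had 45.9 CPM in gof and 116 CPM in control (-1.32), and Ebf1 had 31.0 CPM in gof and 50.3 CPM in control (-0.68). These 3 genes were called lower and no member was called higher, where 8.1% of the 9753 genes tested were called lower and 3.13% higher. Of all genes called, 27.9% were higher, or 40.2% with median-of-ratios size factors, which left the member counts at 0 higher and 3 lower. Lhx5 was lower still in ratio, with 1.04 CPM in gof and 7.995 CPM in control (-2.14), but both levels lie below 10 CPM and it is not in the count. Ebf2 did not follow: it had 23.2 CPM in gof and 19.98 CPM in control (0.21). Ebf3 had 24.8 CPM in gof and 33.6 CPM in control (-0.42), and Nhlh1 had 43.7 CPM in gof and 60.3 CPM in control (-0.46), neither past the fold limit. Uncx was low in both, with 1.18 CPM in gof (97 UMIs) and 1.14 CPM in control (112 UMIs).

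At E11.5, Ebf1 had 84.7 CPM in gof and 45.7 CPM in control (0.88), Ebf3 had 17.9 CPM in gof and 11.53 CPM in control (0.60), and Uncx had 10.2 CPM in gof and 5.03 CPM in control (0.90). These 3 were called higher and none lower, where 4.27% of 8402 genes were called higher and 4.12% lower. Ebf2, with 26.0 CPM in gof and 26.6 CPM in control, and Lhx5, with 22.9 CPM in gof and 24.0 CPM in control, differed little. Lhx1 (20.6 CPM in gof, 14.55 CPM in control), Nhlh1 (24.8 CPM in gof, 19.0 CPM in control) and Nhlh2 (36.3 CPM in gof, 25.1 CPM in control) were above control by less than the limit. With a filter of 2000 genes and 5% mitochondrial UMIs, 1 of these calls was left and the ratio of Uncx was -0.14.

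**Figure D1:**
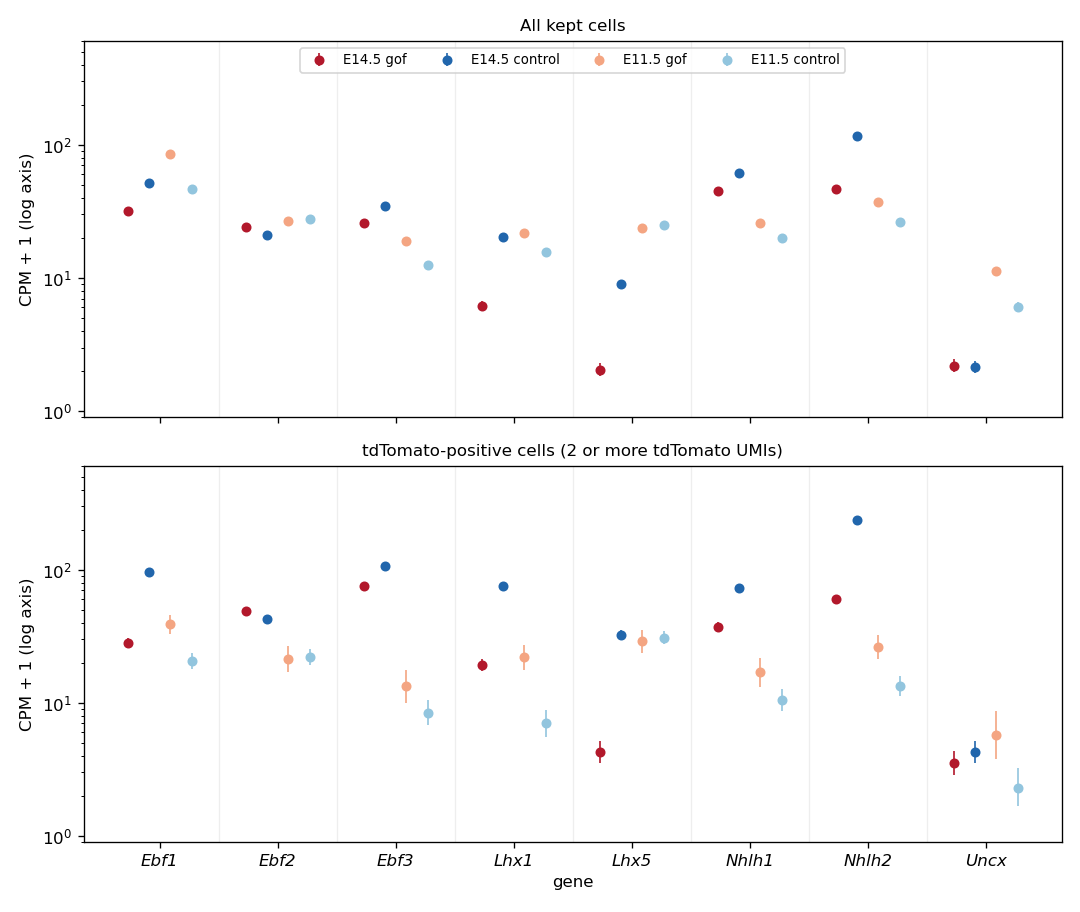
Level of each gene (CPM + 1, log axis) in all kept cells (upper) and in tdTomato-positive cells (lower) of the 4 libraries; points are single libraries and bars the exact 95% Poisson intervals. In E14.5 gof, Lhx1 and Lhx5 are at 5.15 and 1.04 CPM in all cells, below the other 3 libraries, while Ebf2 lies between 19.98 and 26.6 CPM in every library.

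Between the ages, whole libraries differed in composition, and the median of all genes lay at 0.60 in gof and 0.62 in control (log2 of E14.5 over E11.5), and at 0.11 in gof and 0.034 in control with median-of-ratios size factors. In gof Ebf1, Lhx1, Lhx5 and Uncx were called lower at E14.5 (8.78% of all genes were) and Nhlh1 higher (50.7% were); with those size factors 5 were lower and none higher. In control Ebf3, Nhlh1 and Nhlh2 were called higher at E14.5 (51.9% of all genes were) and Lhx5 lower (7.79% were). Lhx5 in gof showed the widest change of the members with age, with 1.04 CPM at E14.5 and 22.9 CPM at E11.5.

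The cells that carried these genes were sorted by markers that include none of the 8. Neurons had a UMI of at least 4 of 10 pan-neuronal genes; those with Trp73 and Reln UMIs form the Cajal-Retzius gate (40 cells in E14.5 gof, 432 in E14.5 control, 86 in E11.5 gof, 110 in E11.5 control). Those with neither form the early neuron gate (1588 cells in E14.5 gof, 1208 in E14.5 control, 381 in E11.5 gof, 305 in E11.5 control). Neurons with only 1 of Trp73 and Reln are in neither gate (788 cells in E14.5 gof, 1271 in E14.5 control, 206 in E11.5 gof, 175 in E11.5 control). They are included where neurons are named without a gate. Cells with Sox2 and Vim and at most 1 pan-neuronal gene form the progenitor gate. The Cajal-Retzius gate thus held 0.76% of the E14.5 gof and 6.57% of the E14.5 control cells. For all cells of a library, fewer cells of a type and less RNA per cell cannot be told apart from summed counts, so the levels within gates follow.

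In E14.5 control, Lhx1, Lhx5 and Uncx were almost confined to the Cajal-Retzius gate. Lhx1 had 280 CPM in Cajal-Retzius cells and 0.25 CPM in early neurons, and the Cajal-Retzius gate, 6.57% of the cells, held 91.0% of the library's Lhx1 UMIs. Lhx5 had 102 CPM in Cajal-Retzius cells and 0.66 CPM in early neurons (80.2% of its UMIs were in Cajal-Retzius cells), and Uncx had 15.8 CPM in Cajal-Retzius cells and 0.30 CPM in early neurons (87.5%). Ebf3 was close to them, with 370 CPM in Cajal-Retzius cells and 9.59 CPM in early neurons (69.4%). The other genes were spread more widely: Cajal-Retzius cells held 39.7% of the UMIs of Nhlh2, 38.5% of Ebf2, 27.4% of Ebf1 and 17.4% of Nhlh1. Nhlh2 had the highest Cajal-Retzius level of the 8, 733 CPM, against 92.1 CPM in early neurons. Nhlh1 had 166 CPM in Cajal-Retzius cells and 71.9 CPM in early neurons. All 8 were called higher in the Cajal-Retzius gate, where 15% of 10083 genes were called higher and 10.8% lower. In E14.5 gof 6 were higher, where 13.7% of all genes were, and none lower, where 7.96% were.

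On GRCm38 (GENCODE M21) the 8 protein-coding genes lie at chr11:44617317-45008091 (Ebf1), chr14:67233292-67430918 (Ebf2), chr7:137193673-137314445 (Ebf3), chr11:84518284-84525535 (Lhx1), chr5:120431699-120441223 (Lhx5), chr1:172052292-172057573 (Nhlh1), chr3:102010076-102015492 (Nhlh2) and chr5:139543494-139548179 (Uncx). The start regions of the members were searched for short motifs, and 3 are shown, those of Lhx1, Nhlh2 and Uncx, whose levels were all higher in Cajal-Retzius cells than in early neurons of E14.5 control. RefSeq on GRCm38.p6 gave promoters, 250 bases before to 50 after a start, for 6 of the 8 genes; Ebf2 and Lhx5 had none. The motifs were TCCC and GGGA with any 2 bases between them for EBF, TAATTA for LIM homeodomain factors, CAGCTG for E-box factors, and CTTTGAT and CTTTGAA for TCF/LEF, on both strands. The Uncx promoter held TAATTA at 2 places, as 5.29% of all 32851 promoters did at least once, and the Nhlh2 promoter held CAGCTG, as 16.3% did. Of the 2 listed starts of Ebf1, the one at chr11:44617850-44618149 held CTTTGAA on one strand, as 5.14% of all promoters did, the one TCF/LEF match among the members. The Lhx1 promoter held none of the 5. In the lines below capitals mark the motif found, each reads in the direction of its gene, and the regions are Lhx1 chr11:84525485-84525784 (minus strand), Nhlh2 chr3:102009895-102010194 (plus strand) and Uncx chr5:139543648-139543947 (plus strand).
Lhx1: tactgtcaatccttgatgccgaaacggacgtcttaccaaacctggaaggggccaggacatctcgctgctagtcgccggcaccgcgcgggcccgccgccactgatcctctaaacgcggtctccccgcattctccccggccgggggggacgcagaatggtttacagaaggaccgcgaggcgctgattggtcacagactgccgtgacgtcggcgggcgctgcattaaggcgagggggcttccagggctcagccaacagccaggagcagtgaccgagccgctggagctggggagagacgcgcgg
Nhlh2: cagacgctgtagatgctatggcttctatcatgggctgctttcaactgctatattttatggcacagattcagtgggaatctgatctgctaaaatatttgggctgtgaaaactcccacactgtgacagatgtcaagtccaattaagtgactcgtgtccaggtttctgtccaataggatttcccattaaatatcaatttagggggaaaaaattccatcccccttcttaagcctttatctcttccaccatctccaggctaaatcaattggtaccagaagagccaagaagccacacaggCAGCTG
Uncx: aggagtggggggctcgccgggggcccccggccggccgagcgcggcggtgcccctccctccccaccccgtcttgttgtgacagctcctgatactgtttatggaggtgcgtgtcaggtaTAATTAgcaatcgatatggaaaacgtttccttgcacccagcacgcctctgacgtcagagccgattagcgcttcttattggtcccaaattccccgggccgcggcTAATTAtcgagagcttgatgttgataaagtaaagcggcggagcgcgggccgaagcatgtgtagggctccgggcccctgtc
No EBF motif was found in any of the 7 promoters of the 6 genes, and it was in 0.90% of all promoters. A match is a description of letters and not of binding.

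Shares of cells with a UMI were read after thinning to 3000 UMIs. In Cajal-Retzius cells Nhlh2 was found in 12 of 40 E14.5 gof cells and in 76.3% of 431 E14.5 control cells (85.0% in gof and 94.9% in control before thinning), and Lhx1 in 35.0% of E14.5 gof and 55.5% of E14.5 control cells (75.0% in gof and 83.6% in control before thinning). In early neurons Lhx1 was found in 1.37% of E14.5 gof and 0.26% of E14.5 control cells (4.66% in gof and 0.41% in control before thinning). In the non-neural gates, taken as background, Lhx1 was found in none of 112 E14.5 gof and 2.15% of 93 E14.5 control cells after thinning; 0 of 112 allows up to 3.24% (exact 95% bound), so at this number of cells the share in gof early neurons could not be told from background. By level, Lhx1 had 6.36 CPM in gof early neurons (159 UMIs) and 0.72 CPM in gof non-neural cells (2 UMIs). In control it had 0.25 CPM in early neurons (5 UMIs) and 13.2 CPM in non-neural cells (21 UMIs, 17 of them in a gate of 8 erythroid cells). The median depth of early neurons was 13873 UMIs in gof and 14137 UMIs in control, and that of non-neural cells 16460.5 UMIs in gof and 11190 UMIs in control. Over all cells Nhlh1 and Nhlh2 were found most widely, Nhlh1 in 12.3% of E14.5 gof and 14.6% of E14.5 control cells and Nhlh2 in 10.9% of E14.5 gof and 19.3% of E14.5 control cells.

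At E11.5 the same genes were shared by both neuron gates. In E11.5 control, Nhlh2 had 185 CPM in Cajal-Retzius cells and 199 CPM in early neurons, Uncx 48.3 CPM in Cajal-Retzius cells and 37.6 CPM in early neurons, and Ebf1 153 CPM in Cajal-Retzius cells and 149 CPM in early neurons. Lhx1 was the most uneven with Ebf3: it had 211 CPM in Cajal-Retzius cells and 63.7 CPM in early neurons (1.71), and Ebf3 had 181 CPM in Cajal-Retzius cells and 53.8 CPM in early neurons (1.73). In E11.5 gof 3 of the 8 (Ebf3, Lhx1 and Lhx5) were called higher in Cajal-Retzius cells, with 7.03% of all genes, and in E11.5 control 5, with 7.75% of all genes. None was called lower, where 2.85% of all genes in gof and 2.59% in control were. In E11.5 control the ratio of Ebf2 (0.73) had the opposite sign, -0.19, with gates read on cells thinned to 3000 UMIs, and that of Nhlh1 (0.89) was -0.34 with at least 6 pan-neuronal genes.

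Early neurons of E14.5 had lower levels of every member than early neurons of E11.5. In control, Lhx1 had 0.25 CPM at E14.5 and 63.7 CPM at E11.5, Uncx 0.30 CPM at E14.5 and 37.6 CPM at E11.5, and Lhx5 0.66 CPM at E14.5 and 40.2 CPM at E11.5, log2 ratios of -5.69, -4.89 and -4.64. Nhlh1, at 71.9 CPM at E14.5 and 123 CPM at E11.5 (-0.77), and Nhlh2, at 92.1 CPM at E14.5 and 199 CPM at E11.5 (-1.10), differed least. All 8 were called lower in gof, with 8.87% of all genes, and all 8 in control, with 8.55%, while the median of all genes tested lay at 0.53 in gof and 0.45 in control. No member was called higher with age, where 44.3% of all genes in gof and 42.5% in control were. In Cajal-Retzius cells of control the change with age was mixed. Nhlh2 had 733 CPM at E14.5 and 185 CPM at E11.5, and Ebf3 had 370 CPM at E14.5 and 181 CPM at E11.5; Ebf2 had 122 CPM at E14.5 and 258 CPM at E11.5, and Uncx 15.8 CPM at E14.5 and 48.3 CPM at E11.5. Of the 8, 3 were called higher (33.3% of all genes were) and 2 lower (8.3% of all genes were); the third of the higher ones, Lhx5, had a ratio of 0.62 against a median of 0.47 over all genes. With median-of-ratios size factors 2 were higher and 3 lower. In Cajal-Retzius cells of gof 5 members were lower at E14.5, where 5.8% of all genes were, and none higher, where 15.1% were; Nhlh1, for one, had 104 CPM at E14.5 and 281 CPM at E11.5. With gates read on thinned cells 3 members were called in place of 5.

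**Figure D2:**
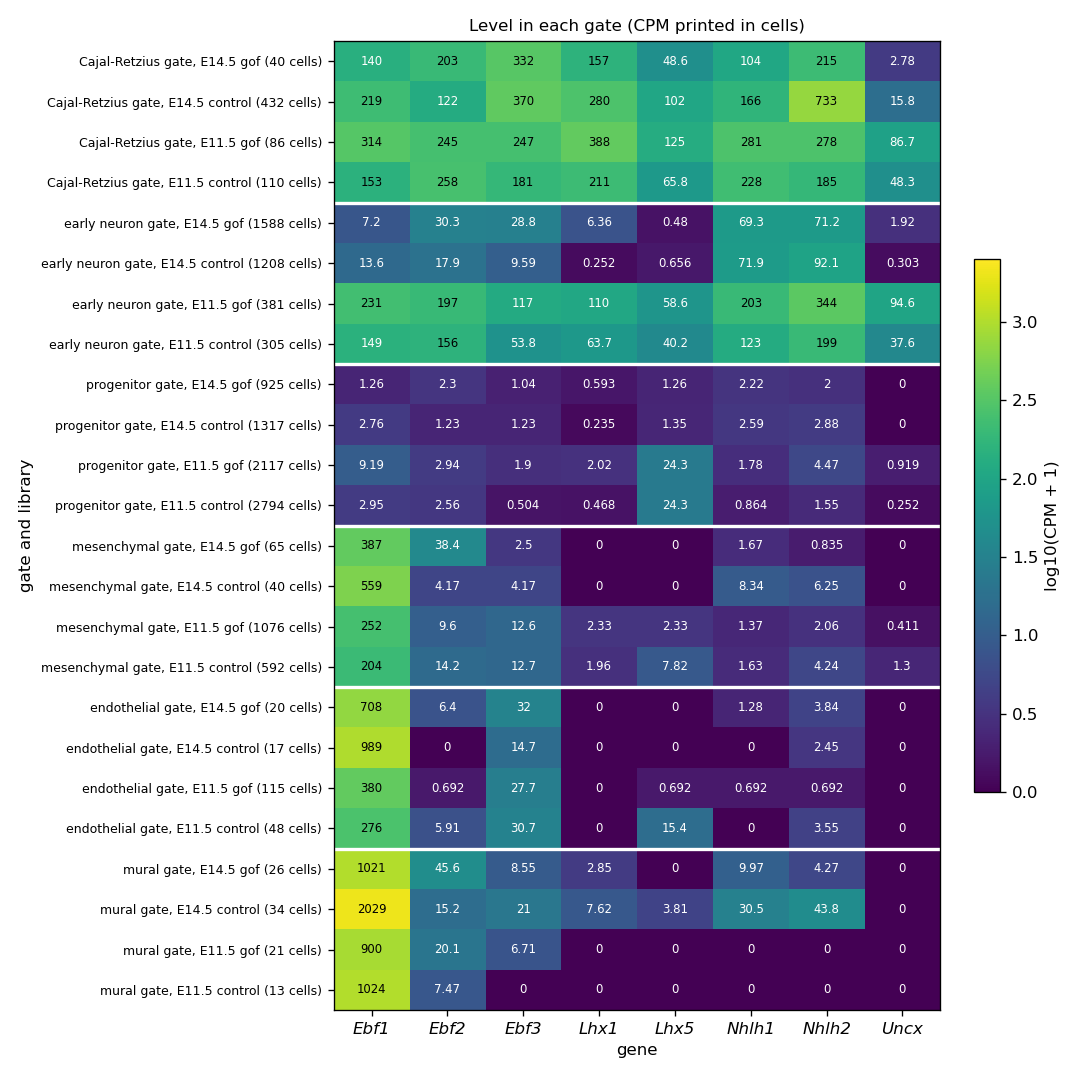
Level of each gene (colour, log10 of CPM + 1; CPM printed) in 6 marker gates of the 4 libraries. Lhx1, Lhx5 and Uncx are at or below 0.66 CPM in E14.5 control early neurons, and Ebf1 is high in the mesenchymal, endothelial and mural gates of every library.

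Lhx5 was the one member present in progenitors at E11.5. Its progenitor level was 24.3 CPM in both E11.5 gof and E11.5 control, with 6.11% of E11.5 gof and 6.46% of E11.5 control progenitors holding a UMI after thinning to 3000 UMIs per cell (13.1% in gof and 15.9% in control before thinning). At E14.5 it was 1.26 CPM in gof and 1.35 CPM in control progenitors, log2 ratios of E14.5 over E11.5 of -3.49 in gof and -3.43 in control, while 7.22% of all genes in gof and 6.26% in control were called lower in progenitors. The progenitor gate held 35.4% of all Lhx5 UMIs in E11.5 gof and 41.5% in E11.5 control. The other 7 members had at most 9.19 CPM in progenitors of any library, the highest being Ebf1 in E11.5 gof; Ebf1 had 2.95 CPM in E11.5 control. As a measure of background, Lhx5 had a UMI in 0.58% of E11.5 gof and 1.53% of E11.5 control mesenchymal cells after thinning, at a median depth of 6087 UMIs in gof and 7626 UMIs in control mesenchymal cells and 6481 UMIs in gof and 8634.5 UMIs in control progenitors.

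The rise with neuronal identity was read without gates, by the number of pan-neuronal genes detected in cells thinned to 3000 UMIs and outside the non-neural gates. In E11.5 gof, Nhlh1 had 2.19 CPM in cells with none of the 10 genes, 147 CPM with 2 or 3 and 277 CPM with 4 or 5; in E11.5 control it had 1.14, 111 and 313 CPM in those classes. Lhx1 had 1.68, 75.3 and 235 CPM in E11.5 gof and 0.52, 67.8 and 277 CPM in E11.5 control. The rise did not always go on to the class of 6 to 10 genes. In E14.5 control, Nhlh1 had 170 CPM with 4 or 5 genes and 101 CPM with 6 to 10, and Nhlh2 had 352 and 253 CPM. Ebf1 in E11.5 control still rose between those classes, from 306 to 506 CPM. At E11.5 neither genotype was the higher one throughout: Ebf2 had 254 CPM in gof and 354 CPM in control in the class of 4 or 5 genes and 192 CPM in gof and 362 CPM in control in the class of 6 to 10, while Uncx had 51.1 CPM in gof and 26.2 CPM in control in the class of 2 or 3, and Ebf1 had 13.7 CPM in gof and 4.66 CPM in control in cells with none. At E14.5 most members were lower in gof within a class. A class takes in Cajal-Retzius and other neurons alike, and the Cajal-Retzius gate held 0.76% of gof and 6.57% of control cells. The part of that difference in these levels was not tested. In cells with 4 or 5 pan-neuronal genes, Nhlh2 had 133 CPM in E14.5 gof and 352 CPM in E14.5 control, Ebf1 22.0 CPM in E14.5 gof and 86.8 CPM in E14.5 control, and Lhx5 1.92 CPM in E14.5 gof and 25.5 CPM in E14.5 control. Ebf2 was not lower in that class, with 44.0 CPM in E14.5 gof and 38.8 CPM in E14.5 control, and in the class of 6 to 10 genes it had 53.0 CPM in E14.5 gof and 27.1 CPM in E14.5 control. Ebf3 had 64.9 CPM in E14.5 gof and 101 CPM in E14.5 control in the class of 4 or 5, but 89.6 CPM in E14.5 gof (83.3 to 96.1) and 74.8 CPM in E14.5 control (69.9 to 80.0) in the class of 6 to 10. Uncx, low at this age, had 2.16 CPM in E14.5 gof and 1.04 CPM in E14.5 control in the class of 2 or 3.

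**Figure D3:**
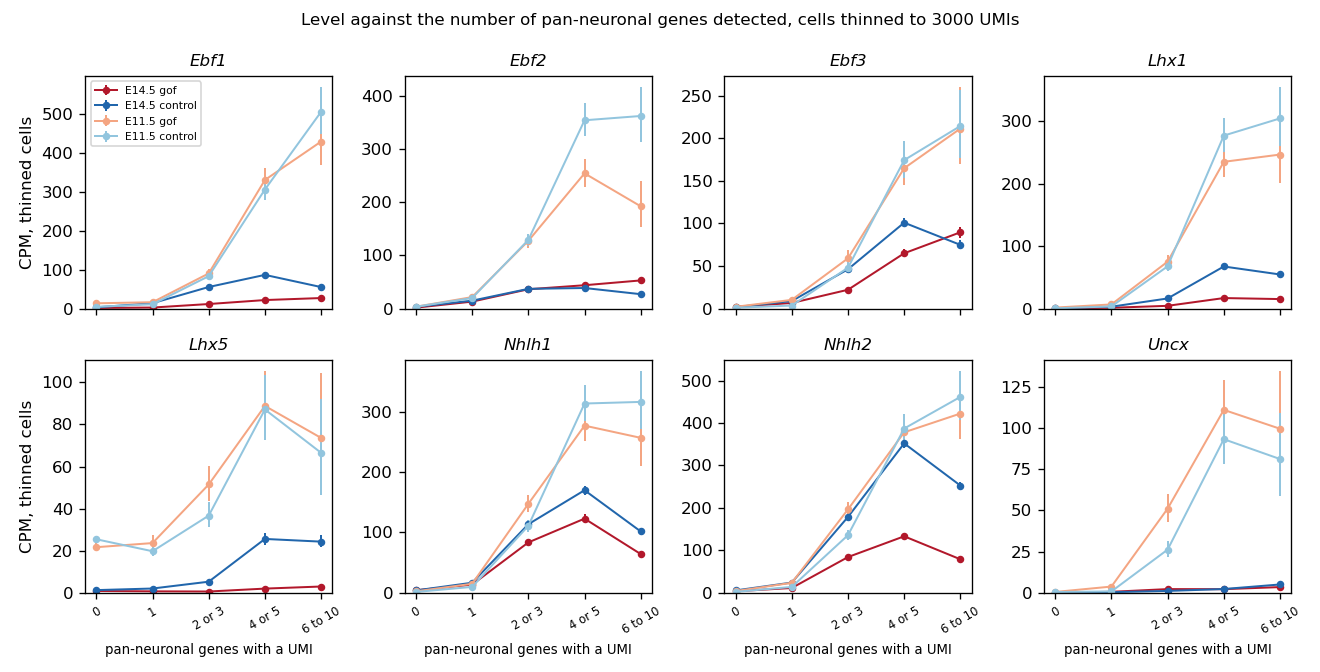
Level of each gene (CPM of thinned cells, linear axis, 1 panel per gene) against the number of pan-neuronal genes with a UMI, for the 4 libraries; bars are exact 95% Poisson intervals. Lhx5 is at 21.6 CPM in E11.5 gof and 25.4 CPM in E11.5 control cells with no such gene, and in cells with 4 or 5 such genes Nhlh2 is at 133 CPM in E14.5 gof and 352 CPM in E14.5 control.

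Within the tdTomato-positive cells, the lineage in which Lmx1aCre had acted, the E14.5 decrease was larger than in whole libraries. Of these cells, 27 of 1027 in gof and 327 of 1104 in control were in the Cajal-Retzius gate. The part of that difference in the decrease was not tested. Lhx5 had 3.30 CPM in gof and 31.4 CPM in control (-2.91), Lhx1 18.2 CPM in gof and 74.9 CPM in control (-1.98), and Nhlh2 59.4 CPM in gof and 235 CPM in control (-1.97). Ebf1 had 27.3 CPM in gof and 95.3 CPM in control (-1.77), and Nhlh1 had 36.4 CPM in gof and 71.4 CPM in control (-0.95). These 5 were called lower and none higher, where 16.7% of 10243 genes were called lower and 6.86% higher. Of all genes called there, 29.1% were higher, or 44.3% with median-of-ratios size factors, and again 5 members were lower. Ebf2 had 47.9 CPM in gof and 41.9 CPM in control, and Ebf3 kept 74.3 CPM in gof against 106 CPM in control (-0.51), under the limit. In tdTomato-negative cells of E14.5, Nhlh2 alone was called lower, with 43.9 CPM in gof and 80.3 CPM in control, where 7.33% of all genes were, and none was higher, where 2.13% were. In tdTomato-negative cells of E11.5, Ebf1, Ebf3 and Uncx were called higher, where 4.33% of all genes were, and none lower, where 3.96% were. With tdTomato read on thinned cells 1 of these 3 calls was left at E11.5, and at E14.5 2 members were called in place of 1.

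Within a library, tdTomato status separated the members most sharply in E14.5 control. There Lhx1 had 74.9 CPM in tdTomato-positive and 1.86 CPM in tdTomato-negative cells (4.73), Lhx5 31.4 CPM in tdTomato-positive and 1.09 CPM in tdTomato-negative cells (3.95), and Ebf3 106 CPM in tdTomato-positive and 11.6 CPM in tdTomato-negative cells (3.09). In E14.5 gof 3 members, Ebf2, Ebf3 and Lhx1, were called higher in tdTomato-positive cells, where 12.2% of all genes were, and in E14.5 control 6, where 13.6% were; with tdTomato read on thinned cells 5 were called in gof. Nhlh1, at 71.4 CPM in tdTomato-positive and 56.1 CPM in tdTomato-negative control cells, was not among the 6. At E11.5 no member was called higher in tdTomato-positive cells with 2 or more tdTomato UMIs: 3 were called lower in gof, where 4.19% of all genes were, and 4 in control, where 2.47% were, while 9.58% of all genes in gof and 6.26% in control were called higher. These calls depended on how tdTomato was read: on thinned cells 2 members were called in gof, where the ratio was 0.40 for Nhlh1, 0.29 for Uncx and 1.17 for Lhx1, and 2 in control, where it was 0.35 for Nhlh1 and 0.16 for Nhlh2. With 1 or more tdTomato UMIs there was 1 call in gof and 2 in control, and with 4 or more there were 7 in gof. Ebf1, for one, had 38.1 CPM in tdTomato-positive and 90.2 CPM in tdTomato-negative cells of E11.5 gof, and 19.6 CPM in tdTomato-positive and 51.0 CPM in tdTomato-negative cells of E11.5 control.

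Some Cajal-Retzius genes, among them Reln and Trp73 that define the Cajal-Retzius gate, were lower in gof in tdTomato-positive cells of E14.5. Of 7 measured genes of that kind outside the 8, 4 were lower in gof at E14.5 and none was higher, with a median log2 ratio of -1.41 against -0.12 for all genes: Reln had 64.6 CPM in gof and 949 CPM in control, Trp73 6.13 CPM in gof and 99.3 CPM in control, while Cxcr4 (40.7 CPM in gof, 37.5 CPM in control) and Zic5 (209 CPM in gof, 176 CPM in control) were not called. Of 11 measured proneural and neuronal factors, 2 were higher and 4 lower, with a median of 0.05. Insm1, a zinc finger factor of dividing neuronal precursors, had 88.2 CPM in gof and 34.4 CPM in control, and Neurog2, a proneural factor, 255 CPM in gof and 153 CPM in control. Tbr1, a factor of early glutamatergic neurons, had 15.6 CPM in gof and 89.3 CPM in control. The 10 LIM domain cofactors had a median of -0.03, with none higher and 3 lower: Ldb2 had 32.6 CPM in gof and 124 CPM in control and Lmo3 18.9 CPM in gof and 52.6 CPM in control, whereas Lmo2 had 208 CPM in gof and 154 CPM in control and Lmo1 31.1 CPM in gof and 22.9 CPM in control. Of 3 measured LIM homeodomain factors outside the members, Lhx9 (17.7 CPM in gof, 92.3 CPM in control) and Lmx1a, whose promoter drives the Cre (72.8 CPM in gof, 226 CPM in control), were lower, and Lhx2 had 283 CPM in gof and 290 CPM in control. Of 3 genes that pair with or resemble EBF factors, Zfp521 was lower, with 172 CPM in gof and 259 CPM in control, Zfp423 had 117 CPM in gof and 90.1 CPM in control, and the paralog Ebf4 8.61 CPM in gof and 10.6 CPM in control.

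In tdTomato-positive cells of E11.5 the direction was the other one. Ebf1 had 38.1 CPM in gof and 19.6 CPM in control (0.92), Lhx1 20.99 CPM in gof and 6.04 CPM in control (1.64), Nhlh2 25.5 CPM in gof and 12.4 CPM in control (0.98), and Nhlh1 15.9 CPM in gof and 9.49 CPM in control (0.69). These 4 were called higher and none lower, where 4.68% of 8697 genes were called higher and 5.59% lower (45.6% of the calls were higher, or 59.7% with median-of-ratios size factors, with 4 members again higher). Ebf2, with 20.4 CPM in gof and 21.1 CPM in control, and Lhx5, with 27.98 CPM in gof and 29.9 CPM in control, did not differ by the limit. The calls depended on how tdTomato-positive cells were taken: with 4 or more tdTomato UMIs 1 call was left and the Lhx1 ratio was -0.066, and with tdTomato read on thinned cells 1 call was left. The median depth of these cells was 9741 UMIs in gof and 13454 UMIs in control, and the part of depth in the result was not tested. None of the 9 measured proneural and neuronal factors was called there (median 0.21 against -0.08 for all genes); Neurog2 had 101 CPM in gof and 69.3 CPM in control and Insm1, with 16.5 CPM in gof, had a log2 ratio of 0.55. Eomes had 6.995 CPM in gof and 10.9 CPM in control. Of 6 measured Cajal-Retzius genes 1 was higher and 1 lower, of 10 LIM domain cofactors 3 were lower, of 3 LIM homeodomain factors 2 were lower, and neither Zfp423 nor Zfp521 was called. Among these, Lhx2 had 97.7 CPM in gof and 195 CPM in control, Lmo3 7.28 CPM in gof and 17.7 CPM in control, Trp73 10.1 CPM in gof and 19.0 CPM in control, and Cacna2d2 26.3 CPM in gof and 15.6 CPM in control, each called.

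In the Cajal-Retzius gate of E14.5, the few cells left in gof differed from control for most members. Nhlh2 had 215 CPM in gof and 733 CPM in control (-1.76), Lhx5 48.6 CPM in gof and 102 CPM in control (-1.05), and Lhx1 157 CPM in gof and 280 CPM in control (-0.83). Nhlh1, with 104 CPM in gof and 166 CPM in control, Ebf1, with 140 CPM in gof and 219 CPM in control, and Uncx, with 2.78 CPM (2 UMIs) in gof and 15.8 CPM in control, were also called lower. Ebf2 was called higher, with 203 CPM in gof and 122 CPM in control, and Ebf3 was neither, with 332 CPM in gof and 370 CPM in control. Thus 6 were lower, where 8.63% of all genes were, and 1 higher, where 6.92% were; with gates read on thinned cells 4 of the 7 calls were left. Gad1, a marker of GABAergic neurons, had 47.2 CPM in these gof cells and 1.78 CPM in control ones, and its part in the result was not tested. E14.5 neurons with only 1 of Trp73 and Reln had 69.2 CPM of Ebf3 in gof and 26.3 CPM in control. Their Ebf2 was 47.0 CPM in gof and 18.1 CPM in control. Their Ebf1 was 31.2 CPM in gof and 58.4 CPM in control, Nhlh2 125 CPM in gof and 210 CPM in control, and Nhlh1 110 CPM in gof and 141 CPM in control.

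At E11.5, Cajal-Retzius cells had 314 CPM of Ebf1 in gof and 153 CPM in control, 388 CPM of Lhx1 in gof and 211 CPM in control, and 125 CPM of Lhx5 in gof and 65.8 CPM in control. These 3 were called higher (2.98% of all genes) and none lower (4.02%). Early neurons had 117 CPM of Ebf3 in gof and 53.8 CPM in control, 94.6 CPM of Uncx in gof and 37.6 CPM in control, and 344 CPM of Nhlh2 in gof and 199 CPM in control, with 6 members called higher (6.63% of all genes) and none lower (10.7%). The summed pan-neuronal levels moved with these calls, and their part in the result was not tested. The summed pan-neuronal level of the early neuron gate was 3530 CPM in gof and 1792 CPM in control, and that of the Cajal-Retzius gate 4770 CPM in gof and 3180 CPM in control. When gates were read on cells thinned to 3000 UMIs, no Cajal-Retzius call and 1 early neuron call was left, and the early neuron ratio of Ebf1 was -0.19 and that of Lhx1 -0.15.

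The early neuron gate of E14.5 behaved differently from the Cajal-Retzius gate. Ebf3 had 28.8 CPM in gof and 9.59 CPM in control (1.49) and Ebf2 30.3 CPM in gof and 17.9 CPM in control (0.73), both called higher, where 3.38% of all genes were, and Ebf1 had 7.20 CPM in gof and 13.6 CPM in control (-0.83), called lower, where 7.39% were. Lhx1 had 6.36 CPM in gof (159 UMIs) and 0.25 CPM in control (5 UMIs), below 10 CPM in both. Splitting the gate by tdTomato showed where these levels lay. The gate leaves out cells with a Trp73 or Reln UMI, and this selection differs between genotypes. In all tdTomato-positive cells of E14.5, Reln had 64.6 CPM in gof and 949 CPM in control. Of those cells, 27 of 1027 in gof and 327 of 1104 in control went to the Cajal-Retzius gate. The part of this selection in the levels below was not tested. Among tdTomato-positive early neurons, 275 cells in gof and 115 in control, Ebf3 had 94.8 CPM in gof (86.5 to 104) and 11.7 CPM in control (7.55 to 17.2), and Ebf2 had 68.4 CPM in gof and 16.3 CPM in control. Lhx1 had 28.5 CPM in gof, from 144 UMIs, and no UMI in control. Its gof level was 20.3-fold that of a floor of 3 counts in control. The 95% interval of its log2 ratio without pseudocount started at 4.03. Uncx had 25 UMIs in gof (4.94 CPM, below 10 CPM) and none in control. Its gof level was 3.53-fold that of the same floor, with an interval that started at a log2 ratio of 1.41. After thinning, Ebf3 was found in 21.9% of gof and 6.14% of control, Ebf2 in 17.2% of gof and 1.75% of control and Lhx1 in 6.93% of gof (19 of 274; 4.23 to 10.6%) and none of 114 control tdTomato-positive early neurons, which allows up to 3.18% (exact 95% bound); before thinning the Lhx1 share was 24.4% in gof and 0 in control.

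Lhx5 did not accompany Lhx1 there: Lhx5 had 1.19 CPM in gof (6 UMIs) and 0.93 CPM in control (2 UMIs). Nhlh2 had 98.8 CPM in gof and 120 CPM in control, Nhlh1 67.2 CPM in gof and 91.4 CPM in control, and Ebf1 12.6 CPM in gof and 21.9 CPM in control. Ebf2, Ebf3 and Lhx1 were called higher, where 9.89% of all genes were, and none lower, where 13.8% were. In tdTomato-negative early neurons, 1093 cells in gof and 900 in control, Ebf3 had 11.6 CPM in gof and 9.84 CPM in control, Ebf2 20.6 CPM in gof and 20.04 CPM in control, and Lhx1 0.51 CPM in gof and 0.36 CPM in control. There 1 member was called, Ebf1, lower with 5.12 CPM in gof and 12.5 CPM in control, where 8.71% of all genes were called lower. Ebf2, Ebf3 and Lhx1 kept their direction in tdTomato-positive early neurons under the 4 other gates tried, chosen after the data were seen, but their sizes moved: the Lhx1 ratio, 4.88 with control at 0 and so set by the pseudocount, was 1.54 when Reln UMIs were allowed in the gate and 2.76 with gates read on thinned cells, and that of Ebf2, 2.001, was 4.54 with thinned gates. The ratio of Ebf1, -0.75, was 0.70 with thinned gates.

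Other markers moved with these cells. In tdTomato-positive early neurons of E14.5, Gad1 had 50.4 CPM in gof and 0.47 CPM in control, and the Wnt target Sp5 356 CPM in gof and 23.3 CPM in control. The 6 diencephalic markers summed to 15.0 CPM in gof and 0.50 CPM in control early neurons, with 1 of the 6 at 0 in gof and 2 in control, and to 48.4 CPM in gof and 16.6 CPM in control tdTomato-positive cells. Early neurons with at least 2 diencephalic markers numbered 37 in E14.5 gof and 0 in E14.5 control, which allows up to 0.0561% of that library's cells (exact 95% bound). In those 37 cells Ebf3 had 136 CPM, Ebf2 88.4 CPM and Lhx1 43.4 CPM, and Lhx5 had no UMI. In the early neurons with neither diencephalic nor GABAergic sets, Ebf3 had 26.1 CPM in gof and 9.65 CPM in control and Lhx1 5.42 CPM in gof and 0.25 CPM in control. These cells held 632 of the 720 Ebf3 UMIs and 131 of the 159 Lhx1 UMIs of the gof early neurons.

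**Figure D4:**
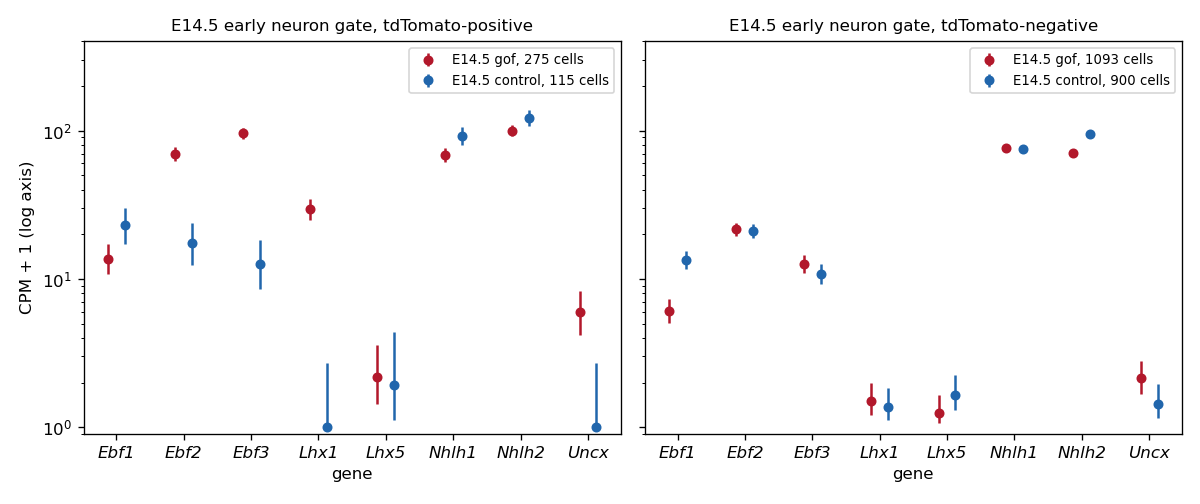
Level of each gene (CPM + 1, log axis) in E14.5 early neurons with 2 or more tdTomato UMIs (left) and with 0 (right); bars are exact 95% Poisson intervals. Ebf3, with 94.8 CPM in gof and 11.7 CPM in control, Ebf2 and Lhx1 stand apart between genotypes in tdTomato-positive cells. Their intervals overlap in tdTomato-negative ones. The early neuron gate leaves out cells with a Trp73 or Reln UMI.

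Notum-positive gof cells, with at least 1 Notum UMI at any tdTomato count, were read against gof groups set by tdTomato. This was done since Notum-positive control cells were few (42 at E14.5, 82 at E11.5). The tdTomato-negative group was taken at any Notum count and so can share cells with the Notum-positive one. The tdTomato-positive group without Notum cannot, but it differs from the Notum-positive one in tdTomato status as well. At E14.5 the Notum-positive gof cells numbered 644. Lhx1 had 20.7 CPM in Notum-positive and 0.66 CPM in tdTomato-negative gof cells, Ebf3 54.5 CPM in Notum-positive and 8.18 CPM in tdTomato-negative cells, and Ebf2 39.4 CPM in Notum-positive and 15.1 CPM in tdTomato-negative cells. These 3 were called higher, where 15% of all genes were, and Ebf1 was called lower, at 11.7 CPM in Notum-positive and 27.9 CPM in tdTomato-negative cells, where 13.7% were. Against tdTomato-positive gof cells without Notum, Ebf1 (11.7 CPM in Notum-positive, 42.0 CPM in Notum-negative cells) and Ebf3 (54.5 CPM in Notum-positive, 88.6 CPM in Notum-negative cells) were lower, where 13.6% of all genes were, and Lhx1 (20.7 CPM in Notum-positive, 14.2 CPM in Notum-negative cells) was not called.

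The E14.5 Notum-positive cells were of several kinds, and the members were in their neurons. Ebf3 had 130 CPM in 250 Notum-positive neurons and 3.98 CPM in 391 Notum-positive cells that are neither neurons nor non-neural, and Lhx1 had 47.7 CPM in Notum-positive neurons and 2.60 CPM in non-neurons. Ebf2, Nhlh1, Nhlh2 and Ebf1 were higher in the neurons too, 6 members in all, where 14.7% of all genes were. At E11.5, the 349 Notum-positive gof cells included 10 neurons. They had 25.4 CPM of Lhx5, against 30.8 CPM in tdTomato-positive cells without Notum, and lower levels of Lhx1 (5.81 CPM in Notum-positive, 32.7 CPM in Notum-negative cells), Ebf3 (4.58 CPM in Notum-positive, 19.4 CPM in Notum-negative cells), Ebf2 (11.9 CPM in Notum-positive, 27.0 CPM in Notum-negative cells) and Ebf1 (19.3 CPM in Notum-positive, 54.9 CPM in Notum-negative cells). These 4 were called lower, where 3.63% of all genes were, and none higher, where 3.18% were. The Notum-negative cells compared were 184 of the 293 tdTomato-positive gof cells, while the 349 Notum-positive cells were taken at any tdTomato count. The part of tdTomato status in these differences was not tested.

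Ebf1 differed from the other members in being high outside the nervous lineage. In mesenchymal cells it had 387 CPM in E14.5 gof, 559 CPM in E14.5 control, 252 CPM in E11.5 gof and 204 CPM in E11.5 control. In mural cells, a gate of at most 34 cells, it reached 1021 CPM in E14.5 gof, 2029 CPM in E14.5 control, 900 CPM in E11.5 gof and 1024 CPM in E11.5 control. The non-neural gates held 68.4% of all Ebf1 UMIs in E14.5 gof, 35.1% in E14.5 control, 62.5% in E11.5 gof and 54.4% in E11.5 control, and at E11.5 they made up 20.8% of gof and 13.6% of control cells. Without them, Ebf1 had 10.1 CPM in E14.5 gof and 33.2 CPM in E14.5 control (-1.62), and 42.1 CPM in E11.5 gof and 24.9 CPM in E11.5 control (0.73). At E11.5 the cells outside the non-neural gates gave 5 calls in place of 3, among them Lhx1 (26.7 CPM in gof, 17.0 CPM in control) and Nhlh2 (47.5 CPM in gof, 29.2 CPM in control), where 3.56% of all genes were called higher. Ebf2 had a smaller non-neural part: 38.4 CPM in E14.5 gof and 4.17 CPM in E14.5 control mesenchymal cells (46 UMIs in 65 gof cells, 2 UMIs in 40 control cells).

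Co-detection was read on cells thinned to 3000 UMIs, as the share of cells with one gene that also had another. Of the 28 pairs, 27 in E14.5 gof and all 28 in each other library were found together more often than the share of all cells with the second gene, the median ratio being 2.79 in E14.5 gof, 4.30 in E14.5 control, 4.96 in E11.5 gof and 5.61 in E11.5 control. The pair not seen together in E14.5 gof was Ebf3 with Uncx; without thinning all 28 pairs were above 1 there. Within neurons alone the median was 1.89 in E14.5 gof, 2.57 in E14.5 control, 1.08 in E11.5 gof and 1.23 in E11.5 control. There 24 of 28 pairs were above 1 in E14.5 gof, 28 in E14.5 control, 21 in E11.5 gof and 23 in E11.5 control. No ratio of other gene pairs is given beside these. At E11.5 single pairs within neurons ran from 0.69 (Ebf2 with Lhx1) to 1.66 (Lhx1 with Lhx5) in gof and from 0.83 (Lhx5 with Nhlh1) to 2.22 (Lhx1 with Uncx) in control. Of the cells with Lhx1 at E14.5, 6.56% in gof (4 of 61, 1.82 to 15.9%) and 32.2% in control (87 of 270, 26.7 to 38.2%) had Lhx5. Of all thinned cells, only 0.26% in gof and 2.24% in control had Lhx5. Lhx1 with Lhx5 had the highest ratio of the E14.5 gof pairs, 25.2. Nhlh2 was in 29.5% of Lhx1 cells in gof and 80.0% in control, and Ebf3 in 42.6% in gof and 71.5% in control. Ebf2 was in 34.4% of Lhx1 cells in gof and 31.1% in control. Of all thinned E14.5 cells, Nhlh2 was in 10.9% in gof and 19.3% in control. Ebf3 was in 4.66% of all cells in gof and 7.24% in control, and Ebf2 in 5.44% in gof and 4.84% in control. At E11.5, Lhx5 was in 33.0% of Lhx1 cells in gof and 24.3% in control, and Uncx in 30.7% of Lhx1 cells in gof and 30.6% in control. Of all thinned E11.5 cells, Lhx5 was in 6.94% in gof and 6.81% in control, and Uncx in 3.14% in gof and 1.80% in control.

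**Figure D5:**
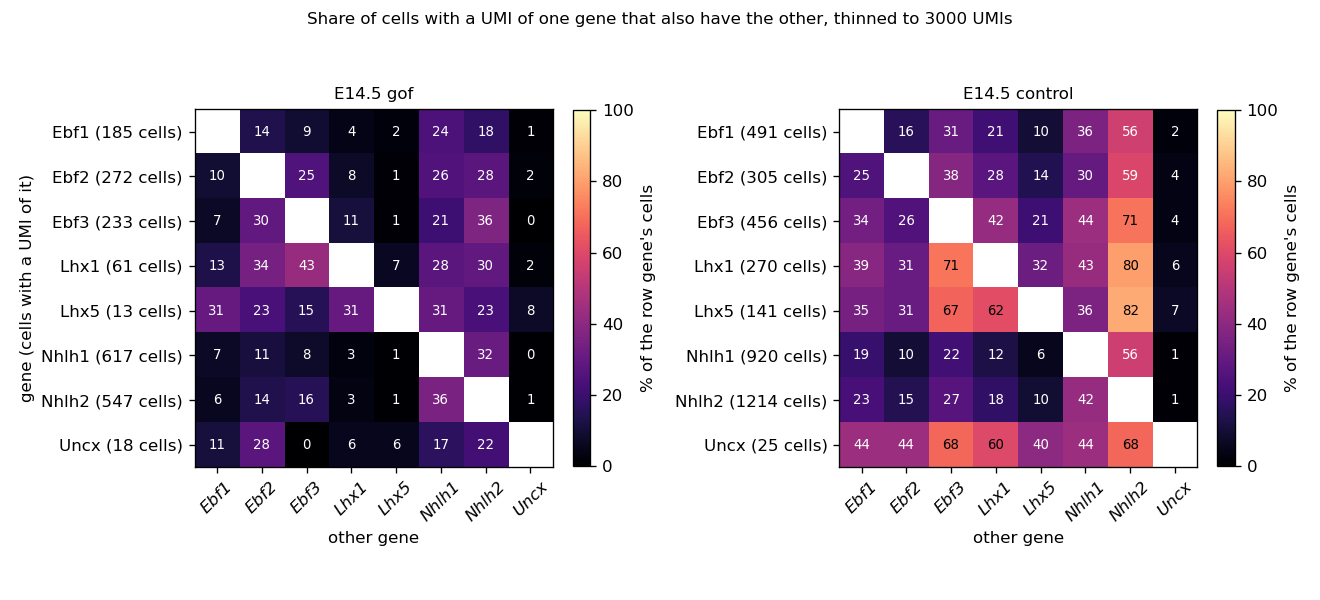
Percentage of the cells with a UMI of the row gene that also have a UMI of the column gene, in E14.5 gof (left) and E14.5 control (right), cells thinned to 3000 UMIs. Of Lhx1 cells, 29.5% in E14.5 gof and 80.0% in E14.5 control have Nhlh2, against 10.9% and 19.3% of all cells.

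The number of members per cell differed between genotypes at E14.5. Among E14.5 Cajal-Retzius cells after thinning, 22.5% in gof (of 40) and 51.0% in control (of 431) had at least 4 of the 8 genes. Among all E14.5 cells, 0.46% in gof and 3.97% in control had at least 4, and among E11.5 cells 4.48% in gof and 3.58% in control. In tdTomato-positive early neurons of E14.5, 31.0% in gof and 21.1% in control had at least 2.

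Over the 17 gated groups of at least 50 cells, the genes whose level followed each member most closely were Jup for Ebf1 (Pearson r of log2(CPM + 1) 0.88), Dll3 for Ebf2 (0.94) and Rcan2 for Ebf3 (0.94). They were Chrna3 for Lhx1 (0.96) and for Uncx (0.96), Barhl2 for Lhx5 (0.98), Scrt1 for Nhlh1 (0.99) and Calb2 for Nhlh2 (0.98). Lhx1 and Uncx followed each other at 0.95, and Nhlh1 and Nhlh2 at 0.98. These groups share libraries and depth and are not independent, so the values describe likeness over these groups and no more.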

How the data were processed

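Single-cell RNA was captured with 10x Genomics 3' chemistry in 4 libraries, 1 per group of pooled embryos. The deposited values are whole-number counts of UMIs per gene and barcode. The submitters' processing notes name Cell Ranger 7.1.0 and mm10, and no source used here names the annotation. Barcodes were kept from 1000 detected genes upward and up to 10% of mitochondrial UMIs, and the highest Scrublet scores (0.8% per 1000 barcodes; scanpy 1.11.5, 30 components) were removed as doublets. Scrublet's own threshold called 2 cells in each E11.5 library, so it did not work there. Counts were summed over cells of a group and scaled to CPM. Poisson and binomial (Clopper-Pearson) intervals are exact, at 95%, and cover counting error only, not variation between embryos. Poisson intervals do not cover the spread of UMIs between cells either, and can be too narrow in gates of few cells. In E14.5 control mural cells, for one, all 23 Nhlh2 UMIs came from 1 cell. Shares of cells and co-detection were read on cells thinned to 3000 UMIs. Calls and gates are as given in the text. The call rule was run on simulated whole libraries of independent Poisson counts. It called none of 7949 unchanged genes at E11.5 and none of 9287 at E14.5, and all genes changed 2-fold. Such counts hold no variation between cells or embryos, and no gates were simulated. The simulation therefore cannot show how often calls in the real groups are wrong. The members, gates and lists were chosen with earlier results of these data known. All 8 members are named; from each list of related genes, the 2 highest and 2 lowest ratios in tdTomato-positive cells at each age, and for likeness the genes of highest correlation. A result that this rule would name is not reported here. Comparisons within sub-gates were added later. Context lists give counts and medians with no test.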

Additional observations from a re-analysis of the deposited data

Results flagged for a closer look

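These results had log2 ratios of gof over control of opposite sign at the 2 ages, both called. The difference between the ages was not tested, since each group is 1 library. For Ebf1 the ratio was -0.68 at E14.5 and 0.88 at E11.5 in whole libraries, and -1.77 at E14.5 and 0.92 at E11.5 in tdTomato-positive cells. In the Cajal-Retzius gate the Ebf1 ratio was -0.64 at E14.5 and 1.03 at E11.5, and in the early neuron gate -0.83 at E14.5 and 0.63 at E11.5. The Lhx1 ratio was -1.98 at E14.5 and 1.64 at E11.5 in tdTomato-positive cells, and -0.83 at E14.5 and 0.88 at E11.5 in the Cajal-Retzius gate. In tdTomato-positive cells the Nhlh1 ratio was -0.95 at E14.5 and 0.69 at E11.5, and the Nhlh2 ratio -1.97 at E14.5 and 0.98 at E11.5. The Lhx5 ratio in the Cajal-Retzius gate was -1.05 at E14.5 and 0.92 at E11.5. The E11.5 values of the gates depend on how deeply gates are read, as given in the text. The E11.5 values of tdTomato-positive cells depend on how these cells are taken, as also given there. With a higher tdTomato limit most of the E11.5 calls in these cells were lost and the Lhx1 ratio was negative. With tdTomato read on thinned cells most of these calls were lost too. The opposite signs in tdTomato-positive cells therefore hold for the main setting and not for every setting tried.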

How the results depend on the processing

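No paired analysis was possible because each group has 1 library. For the same reason no replicate could be left out. Of the log2 ratios of single members recomputed, 591 kept their size and sign, 434 moved by more than their counting interval and 18 turned round; the cause was not tested.

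Counts of members called moved by over 1.5 times as follows. In whole libraries of E11.5, gof over control, 3 became 1 with the stricter filter of 2000 genes and 5% mitochondrial UMIs (Uncx ratio -0.14) and 5 without non-neural gates. In tdTomato-positive cells of E11.5, 4 became 1 with 4 or more tdTomato UMIs (Lhx1 -0.066) and 1 with tdTomato read on thinned cells. In tdTomato-negative cells, 3 became 1 at E11.5 with thinned tdTomato, and 1 became 2 at E14.5 with thinned tdTomato and without non-neural gates. For tdTomato-positive over tdTomato-negative cells, E11.5 control gave 2 in place of 4 with 1 or more tdTomato UMIs, with thinned tdTomato (Nhlh1 0.35, Nhlh2 0.16) and without doublet removal. E11.5 gof gave 1 in place of 3 with 1 or more tdTomato UMIs (Nhlh1 0.0037), 7 with 4 or more, and 6 without non-neural gates; with thinned tdTomato Nhlh1 was 0.40 and Uncx 0.29. E14.5 gof gave 5 in place of 3 with thinned tdTomato.

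With gates read on thinned cells, the Cajal-Retzius count, gof over control, was 0 in place of 3 at E11.5 and 4 in place of 7 at E14.5, and E14.5 over E11.5 in gof 3 in place of 5 (3 also with at least 2 Trp73 and 2 Reln UMIs). At E11.5 it was 1 with 6 of 10 pan-neuronal genes (Lhx5 -0.0084) and 5 without doublet removal. The E11.5 early neuron count was 1 in place of 6 with thinned gates (Ebf1 -0.19, Lhx1 -0.15, Nhlh1 -0.23, Nhlh2 -0.082) and 1 with 6 of 10 genes (Ebf1 -0.053, Lhx1 -0.81, Nhlh1 -0.0068). For Cajal-Retzius over early neurons in E11.5 control, 5 became 3 without doublet removal; Ebf2 was -0.19 with thinned gates and -0.086 with 6 of 10 genes, where Nhlh1 was -0.34.

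Genes called, gof over control, numbered 142 at 2-fold and 243 at 50 CPM in whole libraries of E11.5 (705 as reported), 354 and 392 at E14.5 (1095), 237 and 272 in tdTomato-positive cells of E11.5 (893), and 1026 and 988 at E14.5 (2416). The median co-detection ratio within neurons was 1.08 in E11.5 gof, 1.23 in E11.5 control and 2.57 in E14.5 control.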
